A study of Danio rerio with 18 samples.

Results

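The data described here are the whole-larva transcriptomes of resilient zebrafish (Danio rerio), compared between 5 larvae that had been stressed and 4 that had not. Members were taken from the archetype and state that the labels give each library, which selects 9 of the 18 larvae of the series. All larvae were of the AB strain. They had been separated into resilient and susceptible archetypes at 6 days post fertilization (dpf), left to rest for a day and lysed singly at 7 dpf, either at a basal state or 30 min after a stress of 5 min. The labels name no mutation, transgene or drug. Neither the kind of stress nor the test that separated the archetypes is stated in the labels. Each library is a different larva, so what differed before the stress and what changed after it cannot be told apart. The remaining 9 larvae, 4 basal and 5 stressed susceptible ones, entered the same statistical fit and serve as the comparison at the end.

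In fish, a stressor activates the sympathetic system within seconds and the hypothalamus, pituitary and interrenal gland within minutes, which ends in the release of cortisol. Cortisol binds the glucocorticoid receptor, which raises or lowers the transcription of genes of metabolism, immunity and muscle protein turnover. Neural activity and adrenergic signals also switch on immediate early genes, whose transcripts appear within minutes and decay within hours. Intense swimming loads muscle fibres, their membranes and their attachments to the matrix. These statements are background and were not measured here.

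Total counts of the 9 larvae ran from 10722550 to 17750838 reads, and 22038 genes passed the low-count filter. A level in CPM is a count scaled to the library's size, and values per larva are listed in the order basal 1 to 4 and stressed 1 to 5 of the labels. Positive log2 fold changes mean higher in stressed larvae. A gene was called at an adjusted p below 0.05 in edgeR's quasi-likelihood test with Benjamini-Hochberg adjustment over all genes tested, and "rose" and "fell" are used only for called genes. Markers of the expected organs were found in every larva. Summed over their lists, fast muscle genes took 78957 to 86760.3 CPM in basal and 86898 to 92199 CPM in stressed larvae, exocrine pancreas enzymes 28584 to 37388 CPM in basal and 29892 to 46031 CPM in stressed larvae, and synapse and neuron markers 7700.2 to 8366 CPM in basal and 8014 to 8519 CPM in stressed larvae. Germ cell genes were near their detection limit, with 14 of 26 matched genes passing the low-count filter. The libraries are of whole animals, so fewer cells of a type and less RNA per cell cannot be told apart.

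Some larvae lay farther out than others. On the first principal component of log2 CPM over the 9 larvae, which held 28.3% of the variance, basal larvae 1 to 4 scored -52.95, -3.843, -49.76 and -19.84, and stressed larvae 1 to 5 scored 17.18, 42.81, 46.18, 13.5 and 6.723. No basal larva overlapped the stressed larvae. Basal 1 and 3 and stressed 2 and 3 formed the far ends, and counts are therefore also given without each of these pairs. They are called outlying below only for their place on this component. The pairs were picked from the same data along an axis that separates the groups, and without them fewer larvae remain. The choice itself therefore favours smaller fold changes and fewer calls. No other pair was left out for comparison. In all, 1399 of 22038 genes were called (6.35%), 608 higher (2.76%) and 791 lower (3.59%). The count was 38 without both basal 1 and 3 and 69 without both stressed 2 and 3, and with single larvae left out it was 398, 675 and 790 without basal 1, 3 and 4, and 601 and 604 without stressed 2 and 3. Signs were kept by all 1399 genes in the first of these pairwise fits and by all 1397 that were tested in the second, with median ratios of fold changes of 0.856 and 0.865. Whether called or not, 905 genes (4.11%) had all stressed above all basal larvae and 960 (4.36%) had all stressed below. These include 1050 of the 1399 called genes. Leaving larvae out can hardly reverse the sign of such a gene, so the kept signs were largely fixed in advance. Fold changes of called genes were modest. The median was 0.47 among genes called higher and -0.66 among genes called lower, and 73 higher and 211 lower genes changed by at least 1 on the log2 scale. Of the genes described below, 100 are called, and 83 of these kept the call with any 1 of the 9 larvae left out. Of the same 100 calls, 86 were lost without both basal 1 and 3 and 76 without both stressed 2 and 3. Genes that kept their call with 1 larva left out were preferred for description, so these shares do not describe the 1399 calls. For each described gene that lost its call with 1 larva left out, the larvae that end the call are named.

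**Figure D1:**
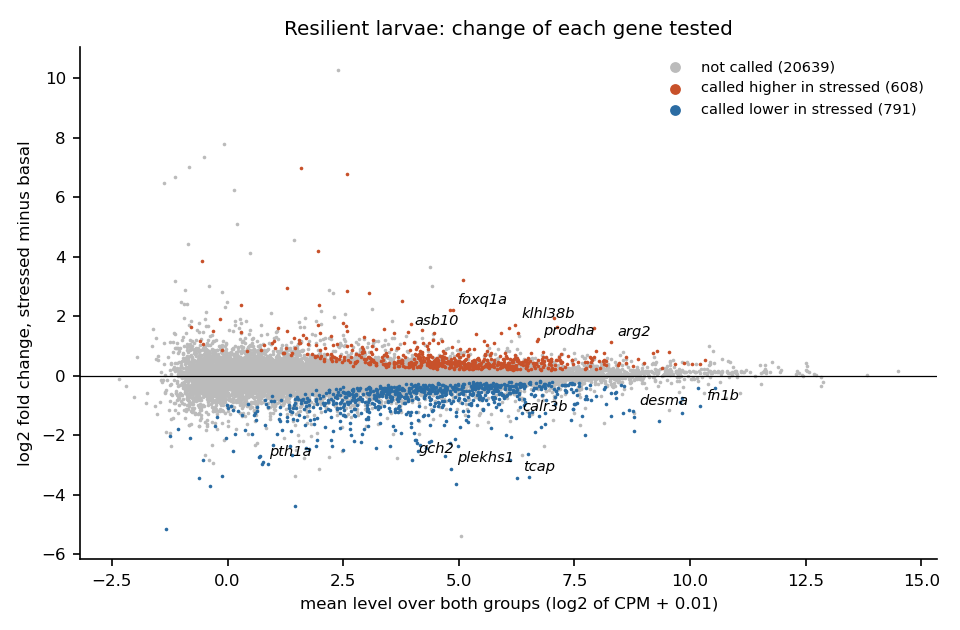
Each point is a gene tested; the horizontal axis is its mean level over both groups in log2 of CPM, and the vertical axis its log2 fold change, stressed minus basal, in resilient larvae. Of the 22038 genes, 608 are called higher and 791 lower, and tcap and plekhs1 lie lowest among the named genes.

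**Figure D2:**
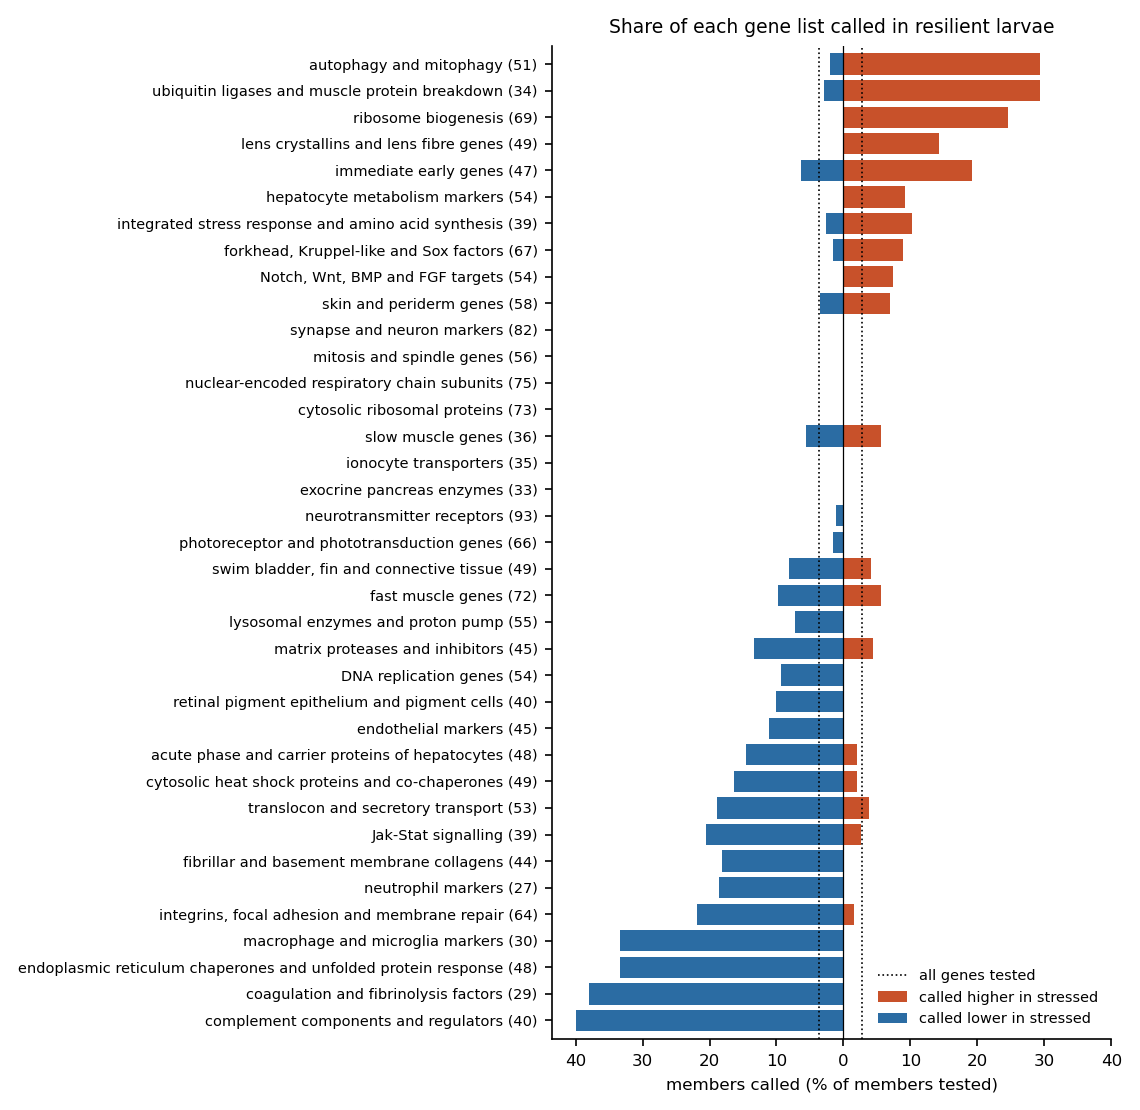
Bars give the share of tested members of each gene list (number tested in parentheses) that was called higher (right) or lower (left) in stressed resilient larvae. Dotted lines mark the shares over all genes tested, 2.76% higher and 3.59% lower. Autophagy, ubiquitin ligase and ribosome biogenesis genes reach farthest to the right, complement, coagulation, macrophage and endoplasmic reticulum chaperone genes farthest to the left.

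Single muscle genes changed in both directions. Of 72 fast muscle genes 4 rose and 7 fell (5.6% and 9.7%, median 0.11). A positive fold change was seen in 51 of the 72, and the summed level of the list was higher in every stressed larva than in any basal larva. Of 36 slow muscle genes 2 rose and 2 fell (5.6% each way, median -0.01), and 0 were called without either outlying pair. Over all genes tested 2.76% rose and 3.59% fell, with a median of 0.0041. These shares are the background for every list count below. tcap encodes titin-cap, which ties titin to the Z-disc. Its level was 94.6, 106, 179.7 and 178 CPM in the basal larvae and 11.9, 7.91, 14.6, 11.5 and 19.3 CPM in the stressed larvae. Every stressed larva was far below every basal larva (log2 fold change -3.42, SE 0.63, adjusted p = 0.00858). Desmin links neighbouring Z-discs, and zebrafish have a pair of desmin genes that moved in opposite directions. desma stood at 517, 704, 513 and 674 CPM in basal and 288, 269.7, 276, 228 and 258 CPM in stressed larvae (log2 fold change -1.19, SE 0.21, adjusted p = 0.00709). The far less abundant desmb had 3.47, 5.52, 4.16 and 3.39 CPM in basal and 7.99, 11.6, 9.41, 6.78 and 7.12 CPM in stressed larvae (log2 fold change 1.04, SE 0.22, adjusted p = 0.0104). Neither gene's groups overlapped, although desmb has a numbered copy in the table, so its count is uncertain. Other fallen genes of this kind were myoz3a, a Z-disc protein that binds calcineurin (-0.902, SE 0.15), cmya5, which anchors proteins near the Z-disc (-0.92, SE 0.18), and stac3, which is needed to couple the action potential to calcium release (-0.54, SE 0.09). The falls named here do not describe the fast muscle list as a whole. Of the genes named, desmb was taken from the swim bladder, fin and connective tissue list and cmya5 from the heart list. The 7 fast muscle calls lower became 4 without basal 1 or basal 3 and 1 without either outlying pair. The 4 calls higher became 0 without basal 1, 1 without basal 3, 1 without basal 4, 2 without stressed 1, 1 without stressed 2, 1 without stressed 3, 0 without both basal 1 and 3 and 0 without both stressed 2 and 3 (list medians 0.05 and 0.09 without these pairs).

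Single slow and cardiac type sarcomere genes were called in both directions as well. The slow troponin I gene tnni1c rose from 15.9, 13.8, 10.7 and 12.4 CPM to 23.7, 27.18, 24.7, 27.8 and 30.04 CPM (log2 fold change 1.01, SE 0.204, adjusted p = 0.00971), and the slow troponin T gene tnnt1 rose by 0.69 (SE 0.15), a call that ended without basal 1 (adjusted p = 0.0551). In contrast, tnnt2c, a troponin T gene of the cardiac type, fell by 1.23 (SE 0.26), and atp2a2b, a calcium pump of slow muscle and heart, fell by 0.77 (SE 0.15). Of 28 muscle stem and myogenic regulators 3 rose and 2 fell (median 0.06), and 0 were called without either outlying pair. Among the called genes of smallest p, on no list, that rose were fgf6a, a fibroblast growth factor of muscle (0.896, SE 0.14), the homeobox gene six4a (0.63, SE 0.09) and the lysine methyltransferase gene setd7 (0.69, SE 0.11). For fgf6a the basal larvae had 21.6, 26.8, 18.2 and 24.7 CPM and the stressed larvae 40.4, 51.3, 41.1, 34.8 and 45.4 CPM, without overlap.

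Dysferlin, encoded by dysf, patches torn muscle membrane. Its transcript measured 32.1, 31.3, 33.6 and 37.6 CPM in basal larvae and 17.1, 14.7, 18.4, 13.7 and 16.7 CPM in stressed larvae (log2 fold change -1.06, SE 0.14, adjusted p = 0.00112). The 5 stressed larvae lay close together, and the groups did not overlap. capn2a, a calcium-activated protease, fell by 1.04 (SE 0.19), and cavin1b, which coats the caveolae of the sarcolemma, fell by 0.66 (SE 0.12).

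Of 64 genes for integrins, focal adhesions and membrane repair, 14 fell and 1 rose (median -0.16). Those 14 calls became 7 without basal 1, 8 without basal 3, 9 without basal 4, 8 without stressed 2, 7 without stressed 3, 2 without both basal 1 and 3 and 2 without both stressed 2 and 3 (list medians -0.13 and -0.16 without these pairs). Talins connect integrins to actin. tln2a had 33.9, 27.17, 25.97 and 30.7 CPM in basal and 15.98, 12.8, 16.9, 16.5 and 15.3 CPM in stressed larvae (log2 fold change -0.92, SE 0.11, adjusted p = 0.000506), and the groups did not overlap. This gene has a numbered copy in the table, so reads may be split between them. The second talin gene, tln1, fell less (-0.45, SE 0.09); the difference between the genes was not tested. Of 44 collagen genes 8 fell and 0 rose (median -0.18). Those 8 calls became 4 without basal 1, 5 without basal 3, 5 without basal 4, 5 without stressed 1, 4 without stressed 2, 4 without stressed 3, 1 without both basal 1 and 3 and 1 without both stressed 2 and 3 (list medians -0.12 and -0.14 without these pairs). col17a1a, the collagen of the hemidesmosomes of skin, fell by 0.73 (SE 0.13) and col18a1a, a basement membrane collagen, by 0.56 (SE 0.11).

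The laminin gene lamb2, a basement membrane component at muscle attachments, fell in all stressed larvae to a like level. Basal larvae had 86.9, 86.4, 102 and 101 CPM and stressed larvae 60.8, 55.8, 56.5, 57.4 and 60.9 CPM (log2 fold change -0.69, SE 0.1003, adjusted p = 0.00194). The stressed larvae lay close together and well below the lowest basal larva. fn1b encodes fibronectin, at 1592 ± 483 CPM (n = 4) in basal larvae and 788 ± 95.2 CPM (n = 5) in stressed larvae (log2 fold change -1.02, SE 0.19, adjusted p = 0.00754). thbs1a, a thrombospondin of the matrix, fell by 0.797 (SE 0.15). Of 45 matrix proteases and inhibitors 6 fell and 2 rose (median -0.14). Those 6 calls became 2 without basal 1, 3 without basal 3, 2 without stressed 3, 2 without both basal 1 and 3 and 2 without both stressed 2 and 3 (list medians -0.08 and -0.11 without these pairs). timp2b, an inhibitor of metalloproteinases, had 54.8, 34.4, 62.1 and 49.9 CPM in basal and 20.4, 11.7, 11.3, 11.3 and 21.2 CPM in stressed larvae, and the protease adamts1 had 54.1, 36.2, 48.04 and 51.6 and 14.9, 18.7, 23.3, 26.2 and 20.7 CPM. Neither gene's groups overlapped.

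Several genes of the ubiquitin system rose, while protein breakdown itself was not measured. Of 34 genes for ubiquitin ligases and muscle protein breakdown, 10 rose and 1, capn2a, fell (median 0.22). Those 10 calls became 6 without basal 1, 2 without both basal 1 and 3 and 1 without both stressed 2 and 3 (list medians 0.16 and 0.16 without these pairs). klhl38b, of the kelch family of ligase adaptors, had 13.3, 54.7, 27.5 and 42.6 CPM in basal larvae and 112, 121, 162, 100.4 and 75.8 CPM in stressed larvae (log2 fold change 1.72, SE 0.31, adjusted p = 0.00796). Basal larvae varied over a wide range but stayed below all stressed ones. asb10, a substrate adaptor of a ubiquitin ligase, had 9.96, 8.498, 4.24 and 8.86 CPM in basal and 20.5, 26.9, 25.3, 19.2 and 18.2 CPM in stressed larvae (log2 fold change 1.48, SE 0.197, adjusted p = 0.0013). Basal 3 was the lowest of the 9 for asb10, and no stressed larva overlapped a basal one. The deubiquitinase gene usp2a (0.52, SE 0.09) and zfand5b, a zinc finger protein that binds ubiquitin and the proteasome (0.62, SE 0.12), rose by smaller steps. The proteasome itself had few calls, with 1 of 41 subunits higher and 1 lower. psme4a encodes a proteasome activator and rose by 1.62 (SE 0.35), a call that ended without basal 1 or without basal 3 (adjusted p up to 0.0533), whereas psme2, a subunit of the interferon-inducible activator of mammals, fell by 0.77 (SE 0.16).

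Autophagy encloses cytoplasm and mitochondria in a membrane and delivers them to the lysosome. Of 51 autophagy and mitophagy genes 15 rose and 1 fell (median 0.19), a share of 29.4% higher against 2.76% of all genes. Those 15 calls became 7 without basal 1, 9 without basal 3, 7 without stressed 2, 9 without stressed 3, 0 without both basal 1 and 3 and 3 without both stressed 2 and 3 (list medians 0.12 and 0.12 without these pairs). The member that fell, the pigment cell regulator mitfa, is better known from melanophores. It was at 2.08 ± 0.648 CPM (n = 4) in basal larvae and 1.02 ± 0.421 CPM (n = 5) in stressed larvae, with groups that overlapped (-1.06, SE 0.29), and its call ended when any of basal 1, basal 2, stressed 2, stressed 3 and stressed 4 was left out alone (adjusted p up to 0.113). ulk1a encodes the kinase that starts autophagosome formation. Its level was 21.1, 26.7, 22.8 and 24.3 CPM in basal larvae and 32.4, 35.08, 47.9, 42.5 and 33.2 CPM in stressed larvae (log2 fold change 0.69, SE 0.12, adjusted p = 0.00415). Stressed 3 and 4 were the highest, and no larva overlapped the other group. map1lc3a encodes the LC3 protein that coats autophagosomes, and it rose from 96.9, 106, 99.2 and 94.8 CPM to 133, 175, 158, 130.3 and 128 CPM (log2 fold change 0.55, SE 0.09, adjusted p = 0.00314). wipi2, which recruits the lipidation machinery, rose by 0.43 (SE 0.08), and bnip3lb, a receptor for mitochondria, by 0.37 (SE 0.07). Lysosomal enzymes and the proton pump did not follow, with 0 of 55 higher and 4 lower.

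Ribosome biogenesis genes rose while the ribosomal proteins themselves were not called. Of 69 biogenesis genes, 17 rose and 0 fell (median 0.22). Those 17 calls became 5 without basal 1, 9 without basal 3, 9 without basal 4, 8 without stressed 2, 8 without stressed 3, 0 without both basal 1 and 3 and 0 without both stressed 2 and 3 (list medians 0.14 and 0.17 without these pairs). Of 73 cytosolic ribosomal protein genes 0 were called by edgeR, with 16 at an unadjusted p below 0.05, 0 by DESeq2 and 0 by voom. A positive fold change was seen in 72 of them (median 0.14). nop56 encodes the core of the box C/D particles that methylate ribosomal RNA. Basal larvae had 127, 153, 140.2 and 138 CPM and stressed larvae 166, 196, 191, 189 and 178 CPM (log2 fold change 0.399, SE 0.07, adjusted p = 0.00415), a small step without overlap. The ribosomal RNA helicase gene ddx27 (0.42, SE 0.08), wdr43 of the small subunit processome (0.49, SE 0.1004) and nob1, the nuclease that trims the small subunit RNA (0.39, SE 0.08), rose by like amounts. cd3eap carries a name from T cells, but its human counterpart is a subunit of RNA polymerase I, which transcribes ribosomal RNA, and it rose by 0.55 (SE 0.105). eif6, which keeps immature large subunits from joining, rose by 0.32 (SE 0.07) until basal 1 was left out (adjusted p = 0.0502).

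**Figure D3:**
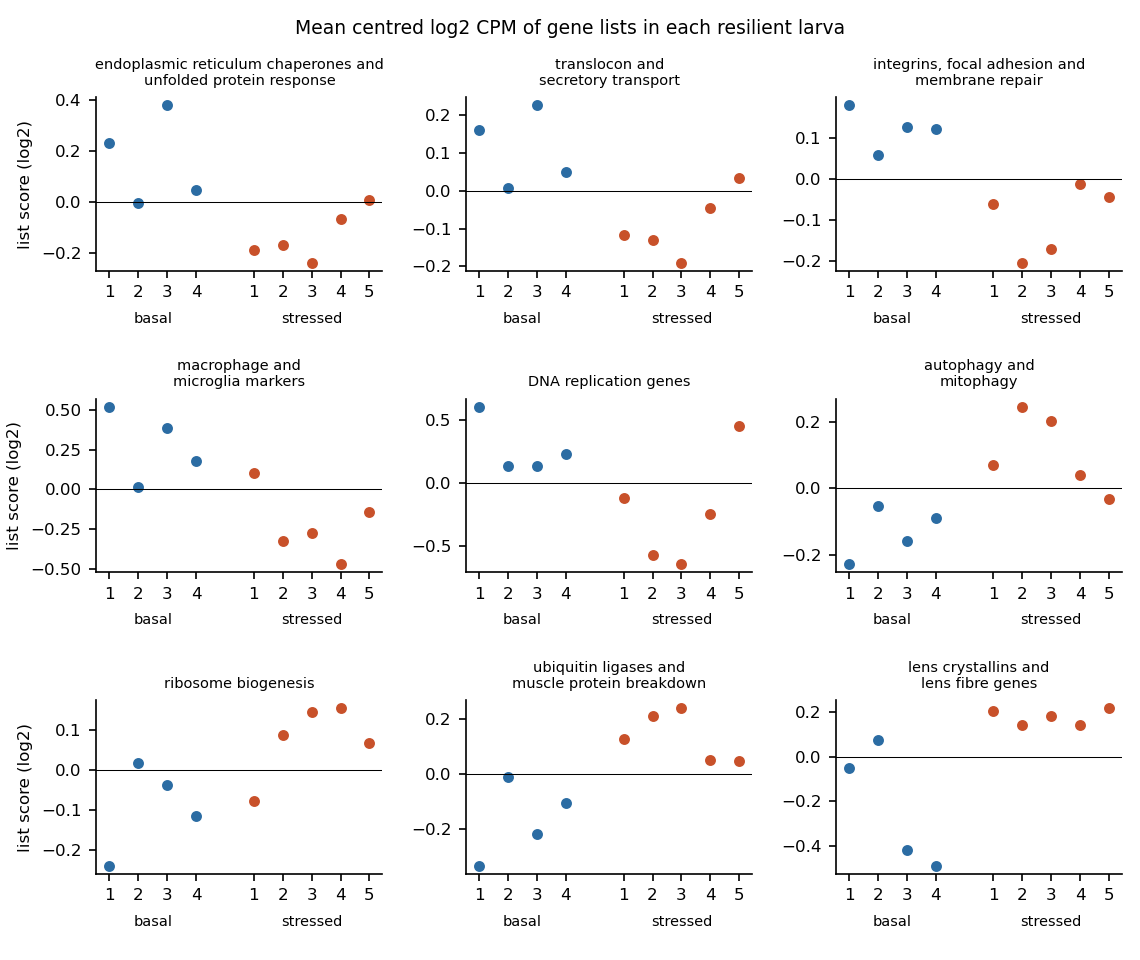
Each point is a resilient larva (basal in blue, stressed in orange, numbered as in the labels); the vertical axis is the list score, the mean over a list's tested genes of log2 CPM centred on the 9 larvae. Integrin, ubiquitin ligase and autophagy scores separate the groups, whereas DNA replication and ribosome biogenesis scores overlap.

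Many genes of the secretory pathway fell. This pathway folds, glycosylates and exports proteins, which in a larva come mostly from liver, pancreas, skin and connective tissue. Of 48 genes for endoplasmic reticulum chaperones and the unfolded protein response 16 fell and 0 rose (median -0.21). Those 16 calls became 5 without basal 1, 10 without basal 3, 0 without both basal 1 and 3 and 0 without both stressed 2 and 3 (list medians -0.12 and -0.196 without these pairs). The list score was 0.23, -0.01, 0.38 and 0.05 in basal larvae and -0.19, -0.17, -0.24, -0.07 and 0.01 in stressed larvae, so stressed 5 overlapped basal 2. The lectin chaperone gene canx had 337, 266, 334 and 292 CPM in basal and 188, 163, 180.3, 225 and 214 CPM in stressed larvae (log2 fold change -0.66, SE 0.11, adjusted p = 0.00314). Its partner pdia3, a disulphide isomerase, had 303, 201, 328 and 236 and 159.98, 137, 141, 159 and 175 CPM (log2 fold change -0.79, SE 0.15, adjusted p = 0.00855), and calr3b, a calreticulin, 139, 62.2, 147 and 90.1 and 41.8, 33.8, 30.4, 49.6 and 51.1 CPM (log2 fold change -1.404, SE 0.26, adjusted p = 0.00779). For all 3 genes every stressed larva was below every basal larva, and basal 1 and 3 were the highest. dnajc3b, a co-chaperone that also restrains a kinase of the unfolded protein response, fell by 0.79 (SE 0.14).

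Of 53 translocon and secretory transport genes 10 fell and 2 rose (median -0.17). Those 10 calls became 1 without basal 1, 4 without basal 3, 6 without stressed 2, 5 without stressed 3, 0 without both basal 1 and 3 and 0 without both stressed 2 and 3 (list medians -0.098 and -0.13 without these pairs). Oligosaccharyltransferase attaches sugar chains to new proteins, and 3 of its subunits fell: stt3b (-0.42, SE 0.09), stt3a (-0.49, SE 0.102) and rpn1 (-0.505, SE 0.11). The calls of stt3a and rpn1 ended without basal 1 (adjusted p = 0.0502 and 0.0512). Exocrine pancreas enzymes, a large secretory load, had 0 of 33 members called by edgeR in either direction, with 3 at an unadjusted p below 0.05, 2 by DESeq2 and 0 by voom. Fold changes were positive in 30, with a median of 0.46. Their list score ran from -0.47 to -0.003 in basal and from -0.26 to 0.39 in stressed larvae, and overlapped.

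Other chaperone systems did not rise with the stress either. Of 49 cytosolic heat shock proteins and co-chaperones 8 fell and 1 rose (median -0.21). Those 8 calls became 5 without basal 1, 5 without basal 3, 5 without stressed 2, 5 without stressed 3, 13 without stressed 5, 1 without both basal 1 and 3 and 1 without both stressed 2 and 3 (list medians -0.0998 and -0.16 without these pairs). The small heat shock gene hspb9 had 11.5, 13.96, 34.4 and 16.8 CPM in basal and 2.59, 2.8002, 3.87, 5.69 and 3.56 CPM in stressed larvae (log2 fold change -2.35, SE 0.45, adjusted p = 0.00885). hspb1 had 56.7, 40.9, 53.7 and 57.9 and 26.01, 15.98, 13.7, 14.5 and 22.4 CPM. Groups of both genes were apart, and basal 3 was the highest for hspb9. hspd1, the mitochondrial chaperonin, fell by 0.58 (SE 0.11) and bag3, a co-chaperone that clears damaged sarcomere proteins, by 0.72 (SE 0.14). The exception that rose was hsf2, a heat shock transcription factor (0.61, SE 0.099). On the integrated stress response list 4 of 39 genes rose and 1 fell, including the transcription factor ddit3, from 82.3, 93.9, 100.5 and 82.9 CPM to 118, 152, 161, 124 and 117 CPM (log2 fold change 0.58, SE 0.11, adjusted p = 0.00855), and ppp1r15a, which reopens translation by dephosphorylating an initiation factor (0.55, SE 0.12). The count of 4 became 8 without stressed 5 and 0 without either outlying pair.

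Several single genes of amino acid and sugar metabolism rose; they belong to no single list and were not tested as a group. prodha, the first enzyme of proline breakdown in mitochondria, had 45.2, 74.7, 67.6 and 64.5 CPM in basal and 142, 141, 179, 151 and 98.6 CPM in stressed larvae (log2 fold change 1.18, SE 0.18, adjusted p = 0.00281). gls2b, a glutaminase, had 9.69, 15.4, 12.3 and 9.38 and 18.4, 23.9, 24.9, 18.6 and 24.1 CPM (log2 fold change 0.903, SE 0.15, adjusted p = 0.0035), and arg2, a mitochondrial arginase, 135, 165, 236 and 249.7 and 359, 540.02, 528, 365 and 344 CPM (log2 fold change 1.12, SE 0.22, adjusted p = 0.00964). The groups of these 3 genes did not overlap, and stressed 5 was the lowest stressed larva for prodha and arg2. pfkfb1 encodes an enzyme that sets the switch between glycolysis and glucose production, and it rose from 13.9, 13.3, 12.8 and 11.7 CPM to 18.4, 25.4, 25.3, 21.4 and 24.7 CPM. ampd3b, an AMP deaminase, rose from low levels (0.94, SE 0.199).

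Whole carbohydrate lists stayed near the background, with 1 of 53 glycolysis genes higher and 2 lower, and 2 of 48 gluconeogenesis and glycogen genes higher and 3 lower. The glycogen synthase gene gys1 rose by 0.47 (SE 0.104) and the glucose transporter gene slc2a1b fell by 0.51 (SE 0.11), both only with basal 1 included (adjusted p = 0.0596 and 0.0525 without it). g6pca.2, which carries out the last step of glucose release, fell by 0.83 (SE 0.18), a call that ended without basal 3 (adjusted p = 0.0503). odc1, which starts polyamine synthesis, fell by 1.12 (SE 0.24) and lost its call without basal 1 or basal 3 (adjusted p up to 0.0536). Of 75 respiratory chain subunits 0 were called by edgeR, with 5 at an unadjusted p below 0.05, 1 by DESeq2 and 1 by voom. Of 37 cholesterol synthesis and uptake genes 0 were called (median -0.25, but 0.09 without both basal 1 and 3 and -0.13 without both stressed 2 and 3), with 6 at an unadjusted p below 0.05, 0 by DESeq2 and 0 by voom.

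Immediate early genes, which respond to recent stimulation, rose in part. Of 47 immediate early genes 9 rose and 3 fell. Those 9 calls became 3 without basal 1, 4 without basal 3, 5 without basal 4, 0 without both basal 1 and 3 and 2 without both stressed 2 and 3 (list medians 0.12 and 0.04 without these pairs). The transcription factor gene egr1 had 33.6, 27.3, 26.9 and 27.6 CPM in basal and 50.8, 60.9, 65.5, 91.9 and 56.2 CPM in stressed larvae, and ier2a had 36.9, 26.5, 35.7 and 29.1 and 70.7, 91.4, 87.4, 106 and 82.3 CPM. Stressed 4 was the highest larva for both genes, and neither pair of groups overlapped; egr1 has a numbered copy in the table, so its count is uncertain. foxq1a, a forkhead factor, had 9.23, 9.37, 14.003 and 7.73 CPM in basal and 39.6, 52.1, 37.7, 45.2 and 57.3 CPM in stressed larvae. Every stressed larva was far above the highest basal larva, basal 3. klf2b, a factor induced by blood flow, rose by 1.59 (SE 0.34) with basal 1 included (adjusted p = 0.0513 without it).

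Immediate early members that fell were rgs2, which damps G-protein signals (-1.51, SE 0.301) and has a numbered copy, mcl1b, an inhibitor of apoptosis (-0.41, SE 0.08), and csrnp1b, a nuclear factor (-0.45, SE 0.13). The call of csrnp1b ended when any of basal 1, basal 2, basal 4, stressed 1, stressed 2, stressed 4 and stressed 5 was left out alone (adjusted p up to 0.121). pmaip1, which opposes that inhibitor, rose from 6.31, 6.89, 13.6 and 9.21 CPM to 17.3, 18.4, 16.9, 24.1 and 18.9 CPM (log2 fold change 1.09, SE 0.22, adjusted p = 0.00971). The kinase genes pim2 (0.77, SE 0.17) and plk2a (0.44, SE 0.08) rose. ptgs2b, a prostaglandin synthase, had 8.14, 6.27, 9.25 and 5.21 CPM in basal and 20.9, 22.4, 16.3, 34.7 and 26.05 CPM in stressed larvae, without overlap.

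The cortisol axis showed few called changes at this time. Of 16 tested genes for hormones, receptors and steroid enzymes 1 rose and 0 fell. That gene, crhb, encodes corticotropin-releasing hormone, and its level was 4.94, 7.38, 6.96 and 6.69 CPM in basal and 8.46, 10.21, 10.6, 10.7 and 10.3 CPM in stressed larvae; its call ended without basal 1 (adjusted p = 0.0564). The pituitary precursor gene pomca (-0.33, SE 0.26), the cholesterol carrier star (-0.29, SE 0.1996) and the cortisol-producing enzyme gene cyp11c1 (-0.13, SE 0.17) were not called (adjusted p = 0.517, 0.434 and 0.712). hsd11b2, which inactivates cortisol, was at -0.73 (SE 0.25, adjusted p = 0.0935) and was not called by edgeR, while DESeq2 gave an adjusted p of 0.0367.

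Known glucocorticoid-responsive genes did not rise as a set, with 2 of 33 higher, 3 lower and a median of -0.02. fkbp5, a co-chaperone of the receptor and a standard target, had 143, 382, 286 and 385 CPM in basal and 79.5, 23.97, 171, 131 and 68.6 CPM in stressed larvae (log2 fold change -1.65, SE 0.57, adjusted p = 0.0985). The groups overlapped at stressed 3, and the gene was not called by edgeR, while DESeq2 gave an adjusted p of 0.0466. Further targets were not called: tsc22d3 at -0.78 (SE 0.64), klf9 at -0.28 (SE 0.42), sgk1 at -0.54 (SE 0.29), per1a at -0.02 (SE 0.26) and pck1 at -0.36 (SE 0.37), with adjusted p from 0.311 to 0.972. tsc22d3 and sgk1 have numbered copies. zbtb16b, the fish counterpart of a glucocorticoid-induced factor of mammals, rose from 1.65, 3.35, 3.06 and 2.61 CPM to 6.503, 6.34, 9.99, 5.57 and 5.21 CPM (log2 fold change 1.33, SE 0.26, adjusted p = 0.00836).

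**Figure D4:**
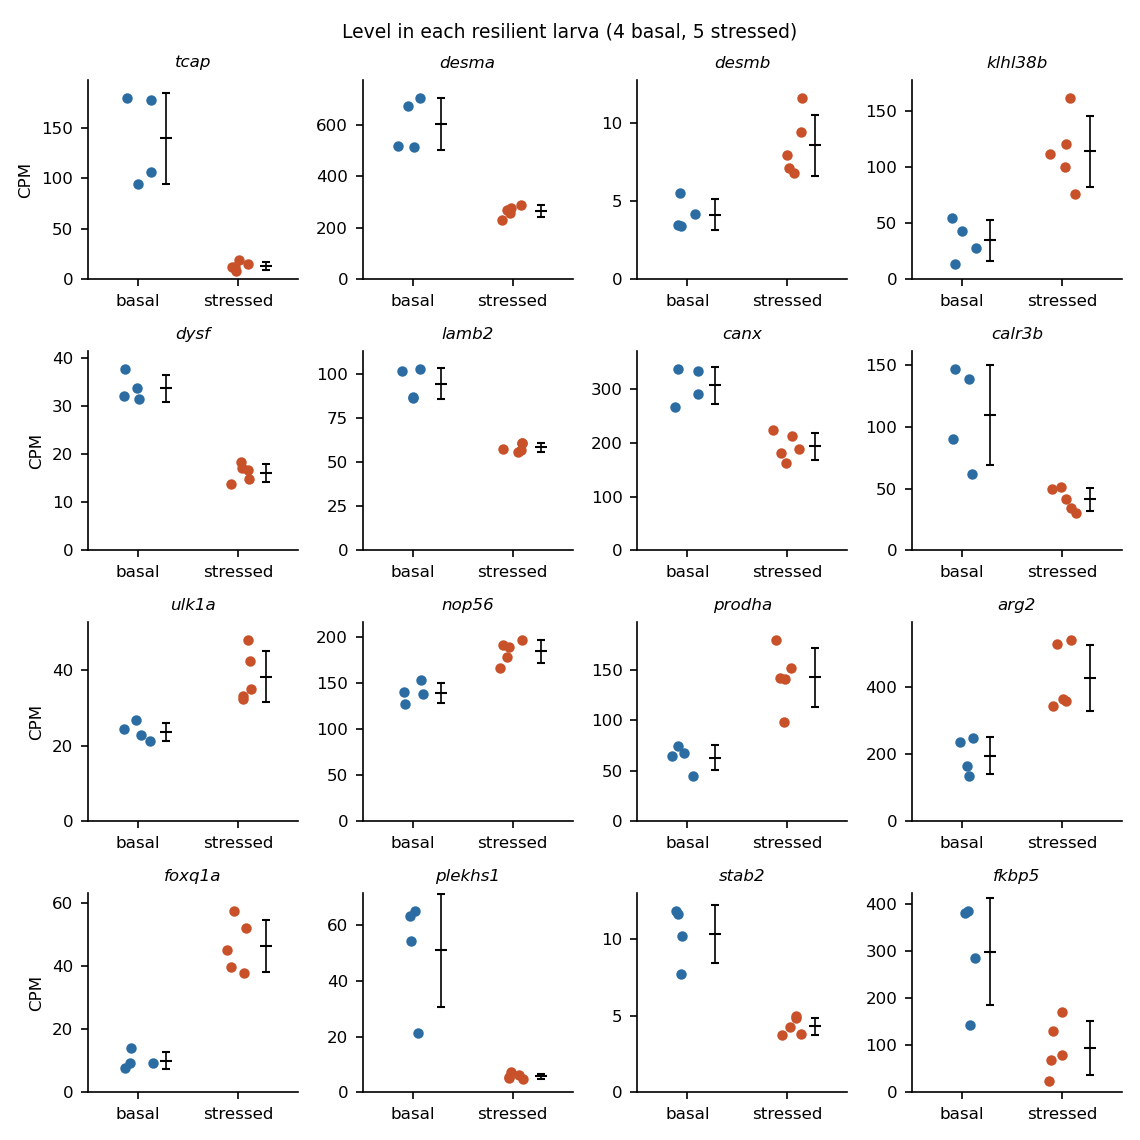
Points are CPM in single resilient larvae, 4 basal (blue) and 5 stressed (orange), on axes that start at 0; black marks are mean ± SD of each group. Groups are apart in 15 of the 16 genes, and fkbp5 overlaps at stressed 3. The 16 genes were chosen for display, and groups are apart in 1050 of all 1399 called genes.

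Liver-derived plasma protein genes and liver enzyme genes had different counts of calls, a contrast that was not tested. Of 48 acute phase and carrier protein genes 7 fell and 1 rose (median -0.25), while of 54 hepatocyte metabolism markers 0 fell and 5 rose (median 0.01). The 7 calls lower became 3 without basal 1, 12 without basal 2, 4 without basal 3, 4 without basal 4, 4 without stressed 2, 3 without stressed 3, 11 without stressed 5, 0 without both basal 1 and 3 and 0 without both stressed 2 and 3. The 5 calls higher became 2 without basal 1, 3 without basal 3, 2 without stressed 2, 2 without stressed 3, 0 without both basal 1 and 3 and 0 without both stressed 2 and 3 (list medians 0.15 and -0.003 without these pairs). The copper and iron oxidase gene cp had 684, 379, 702 and 498 CPM in basal and 349, 170.2, 232, 202 and 324 CPM in stressed larvae (log2 fold change -1.15, SE 0.23, adjusted p = 0.00971). apoc4, an apolipoprotein gene, had 3.93, 3.72, 3.99 and 4.603 and 0.9402, 0.906, 0.982, 1.09 and 1.65 CPM (log2 fold change -1.87, SE 0.299, adjusted p = 0.00314). Both genes' groups were apart, for cp by a narrow margin between basal 2 and stressed 1. itih3a, which stabilizes hyaluronan, fell by 0.59 (SE 0.11). slc10a1, the bile acid uptake carrier of hepatocytes, rose from 0.731, 1.55, 1.27 and 1.303 CPM to 2.66, 3.05, 3.29, 2.24 and 2.69 CPM (log2 fold change 1.18, SE 0.24, adjusted p = 0.0107).

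Complement and clotting factor genes, also of plasma proteins, fell in larger shares than the acute phase list, a difference that was not tested. Complement proteins tag and lyse microbes, and 16 of 40 genes for components and regulators fell and 0 rose (median -0.96). Those 16 calls became 6 without basal 1, 6 without basal 3, 7 without stressed 2, 6 without stressed 3, 1 without both basal 1 and 3 and 2 without both stressed 2 and 3 (list medians -0.54 and -0.87 without these pairs). The series title names complement factors, so the direction of this list is not independent evidence. Of 29 clotting factors 11 fell and 0 rose (median -0.49). Those 11 calls became 0 without basal 1, 0 without basal 3, 3 without basal 4, 3 without stressed 2, 1 without stressed 3, 6 without stressed 4, 0 without both basal 1 and 3 and 0 without both stressed 2 and 3 (list medians -0.41 and -0.43 without these pairs).

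The acute phase gene that rose was hamp, which encodes the iron hormone hepcidin. Its basal levels were 5.58, 1.49, 5.18 and 4.26 CPM and its stressed levels 11.8, 21.4, 43.9, 34.1 and 3.82 CPM (log2 fold change 2.51, SE 0.71, adjusted p = 0.047). Stressed 5 lay within the basal range, and the call ended when any of basal 1, basal 2, basal 3, basal 4, stressed 2, stressed 3 and stressed 4 was left out alone (adjusted p up to 0.118).

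Several markers of macrophages, neutrophils and endothelium fell. Of 39 erythrocyte globin, heme and membrane genes 1 rose and 1 fell (2.6% each way), near the background. The lymphoid list had 0 of 21 genes lower and 1, cd3eap, higher. As its human counterpart is a subunit of RNA polymerase I, cd3eap is not read here as a lymphoid marker. Of 30 macrophage and microglia markers 10 fell and 0 rose, and of 27 neutrophil markers 5 fell and 0 rose. Those 10 calls became 3 without basal 1, 4 without basal 3, 6 without basal 4, 3 without stressed 2, 4 without stressed 3, 6 without stressed 4, 0 without both basal 1 and 3 and 0 without both stressed 2 and 3 (list medians -0.27 and -0.45 without these pairs). The 5 neutrophil calls became 3 without basal 1 or basal 3, 8 without basal 2, 1 without both basal 1 and 3 and 2 without both stressed 2 and 3. Summed over the neutrophil list, levels were 3978 to 4870 CPM in basal and 4028 to 5797 CPM in stressed larvae. The summed level of this list was thus not lower in stressed larvae, but a sum gives most weight to the most abundant genes. Fold changes were negative in 24 of the 27 neutrophil markers (median -0.55). The median was -0.199 without both basal 1 and 3 and -0.43 without both stressed 2 and 3. Summed macrophage and microglia markers took 2641 to 4503 CPM in basal and 1885 to 2787 CPM in stressed larvae. mpeg1.2, a pore-forming protein of macrophages, had 231, 89.2, 129 and 181 CPM in basal and 53.5, 58.1, 33.9, 32.2 and 35.6 CPM in stressed larvae. Basal 2 was the lowest basal larva but still above the stressed ones. Further genes fell that are not read here as markers of a cell type. They were ctsc, a protease that activates granule enzymes (-0.73, SE 0.15), and alox5b.1, which makes leukotrienes (-1.18, SE 0.23). The tumour necrosis factor receptor gene tnfrsf1a (-0.92, SE 0.14) and the leukaemia inhibitory factor receptor gene lifrb (-0.79, SE 0.13) were others. irg1l, whose product makes itaconate, fell by 2.84 (SE 0.61) only with basal 1 included (adjusted p = 0.0502 without it).

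Of 45 endothelial markers 5 fell and 0 rose (median -0.07). Fold changes were positive in 20 and negative in 25 of them, so the list as a whole moved little. stab2 marks the scavenger endothelium of zebrafish veins. It had 11.8, 11.6, 7.72 and 10.16 CPM in basal and 3.76, 4.28, 3.81, 4.83 and 4.95 CPM in stressed larvae (log2 fold change -1.26, SE 0.24, adjusted p = 0.00754), without overlap, though the gene has a numbered copy. The 5 calls became 1 without basal 1 or stressed 2, 2 without stressed 3, 3 without basal 3, basal 4 or stressed 1, and 0 without either outlying pair.

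In the body surface and sense organs, shares called higher differed by list. They were 6.9% of skin and periderm genes and 14.3% of lens genes, against 2.76% of all genes. Of 31 hair cell and inner ear genes 3 rose (9.7%) and 0 fell, and 0 were called without either outlying pair. Photoreceptor genes had 0% called higher. Of 58 skin and periderm genes 4 rose and 2 fell. Fold changes were positive in 30 and negative in 28 (median 0.005), so the genes named here do not describe the list as a whole. The tight junction gene cldnb had 64.9, 66.3, 80.3 and 68.005 CPM in basal and 107, 114, 110.1, 142 and 126 CPM in stressed larvae (log2 fold change 0.78, SE 0.13, adjusted p = 0.00336), without overlap. lye (0.97, SE 0.18) and icn2 (0.77, SE 0.16), both abundant in fish epidermis, also rose. The count of 4 was 1 without both basal 1 and 3 and 2 without both stressed 2 and 3.

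Of 49 lens genes 7 rose and 0 fell, and 46 had a positive fold change (median 0.38). Those 7 calls became 0 without basal 1, 21 without basal 2, 0 without basal 3, 0 without basal 4, 1 without stressed 1, 1 without stressed 2, 1 without stressed 3, 3 without stressed 5, 0 without both basal 1 and 3 and 0 without both stressed 2 and 3 (list medians 0.33 and 0.43 without these pairs). Summed lens CPM ran from 9968 to 13714 CPM in basal and 13977 to 16364 CPM in stressed larvae, with scores of -0.05, 0.07, -0.42 and -0.49 in basal and 0.204, 0.14, 0.18, 0.14 and 0.22 in stressed larvae, so basal 3 and 4 were the low pair. lim2.3, a lens fibre membrane gene, rose by 0.46 (SE 0.11) and the crystallin gene cryba4 by 0.44 (SE 0.12). The call of lim2.3 ended when any of basal 1, basal 3, basal 4 and stressed 2 was left out alone, and that of cryba4 for any of basal 1, basal 3, basal 4, stressed 1 and stressed 3 (adjusted p up to 0.081 and 0.109).

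Some pigment cell genes fell steeply. gch2 starts pteridine synthesis for the yellow xanthophores. Basal larvae had 43.1, 23.6, 27.3 and 16.9 CPM and stressed larvae 3.604, 3.21, 2.43, 3.33 and 7.38 CPM (log2 fold change -2.82, SE 0.51, adjusted p = 0.00796). Stressed 5 was the highest stressed larva and remained below all basal ones. Of 40 pigment epithelium and pigment cell genes 4 fell and 0 rose, with a median of 0.05, and the 4 became 1 without basal 1 or stressed 3, 2 without stressed 2 and 0 without either outlying pair. plekhs1, a pleckstrin homology domain gene, showed a fall of like size, from 63.3, 21.3, 54.4 and 64.9 CPM to 4.78, 6.18, 5.601, 7.18 and 5.297 CPM (log2 fold change -3.12, SE 0.54, adjusted p = 0.00647). pth1a, a parathyroid hormone gene, was low in all larvae, with 1.28, 1.92, 2.89 and 5.91 CPM in basal and 0.235, 0.247, 0.462, 0.345 and 0.695 CPM in stressed larvae (log2 fold change -2.89, SE 0.49, adjusted p = 0.00415).

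Few genes of the nervous system were called. Of 82 synapse and neuron markers 0 were called by edgeR, with 5 at an unadjusted p below 0.05, 1 by DESeq2 and 1 by voom. Of 93 neurotransmitter receptors 0 rose and 1 fell, and of 70 ion channels of excitable cells 1 rose and 1 fell; the medians were 0.04, 0.06 and 0.05. The ion channel gene that rose was scn3b, a sodium channel subunit (0.34, SE 0.07). gfap, the filament gene of radial glia, had 113, 112, 100.5 and 84.9 CPM in basal and 142, 166, 151, 153 and 154 CPM in stressed larvae (log2 fold change 0.58, SE 0.103, adjusted p = 0.00564), without overlap. Of 66 photoreceptor genes 0 rose and 1 fell, and of 35 ionocyte transporters 0 were called by edgeR, with 6 at an unadjusted p below 0.05, 0 by DESeq2 and 0 by voom.

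Proliferation genes varied widely among the larvae of each group. Of 54 DNA replication genes 5 fell and 0 rose (median -0.49), and of 56 mitosis genes 0 were called by edgeR although 55 were negative (median -0.53, and -0.24 without both basal 1 and 3 and -0.19 without both stressed 2 and 3), with 6 at an unadjusted p below 0.05, 1 by DESeq2 and 1 by voom. The DNA replication score was 0.61, 0.14, 0.14 and 0.23 in basal and -0.12, -0.57, -0.64, -0.24 and 0.45 in stressed larvae. Stressed 5 lay among the basal larvae, and stressed 2 and 3 were the lowest. Those 5 calls became 0 without basal 1, 2 without basal 3, 1 without basal 4, 2 without stressed 1, 1 without stressed 2, 1 without stressed 3, 3 without stressed 4, 25 without stressed 5, 0 without both basal 1 and 3 and 0 without both stressed 2 and 3 (list medians -0.297 and -0.26 without these pairs). Stressed 2 and 3 are also at the far end of the first principal component; the part of proliferating cells in the other gene lists was not tested.

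The last comparison asked whether the response differed from that of the other archetype. In susceptible larvae, 0 of 22038 genes (0%) were called by edgeR or voom, 49 by DESeq2, and 1642 had an unadjusted p below 0.05. The difference of the 2 responses, tested directly within the fit of all 18 larvae, was called for 31 genes (0.141%), 16 with a more positive (0.0726%) and 15 with a more negative (0.0681%) response in resilient larvae. Of these 31 genes 28 were also called in the resilient contrast, and in 29 the fold changes of the archetypes had opposite signs. Both comparisons share the resilient larvae, so this overlap is a description. Choosing genes by a large difference also favours opposite signs. As 0 genes were called by edgeR in susceptible larvae, the signs do not establish an opposite response there.

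Muscle and attachment genes stood among the 31. A response rests on basal as well as stressed levels, and basal means of the archetypes were not alike. In resilient and susceptible basal larvae they were 33.7 and 24.0 CPM for dysf, 29.4 and 20.5 CPM for tln2a and 50.3 and 32.9 CPM for timp2b. For tnnt1 they were 15.5 and 19.2 CPM, and for asb10 7.89 and 10.9 CPM. Whether basal levels differed between archetypes was not tested. The response of dysf was -1.06 (SE 0.14) in resilient and 0.24 (SE 0.14) in susceptible larvae, a difference of -1.299 (SE 0.196, adjusted p = 0.0127). For tln2a it was -0.92 (SE 0.11) in resilient and 0.15 (SE 0.11) in susceptible larvae, a difference of -1.07 (SE 0.15, adjusted p = 0.0117), and for timp2b -1.73 (SE 0.204) in resilient and 0.15 (SE 0.199) in susceptible larvae, a difference of -1.88 (SE 0.29, adjusted p = 0.0154). Slow troponin T followed the other way, with tnnt1 at 0.69 (SE 0.15) in resilient and -0.49 (SE 0.15) in susceptible larvae, a difference of 1.18 (SE 0.21, adjusted p = 0.0418). asb10 had 1.48 (SE 0.197) in resilient and -0.04 (SE 0.19) in susceptible larvae, a difference of 1.52 (SE 0.27, adjusted p = 0.0423).

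Metabolic genes on the list were pfkfb1, at 0.83 (SE 0.12) in resilient and -0.38 (SE 0.11) in susceptible larvae, a difference of 1.22 (SE 0.16, adjusted p = 0.00666), prodha, at 1.18 (SE 0.18) in resilient and -0.13 (SE 0.17) in susceptible larvae, a difference of 1.304 (SE 0.25, adjusted p = 0.0464), and gls2b, at 0.903 (SE 0.15) in resilient and -0.16 (SE 0.15) in susceptible larvae, a difference of 1.07 (SE 0.21, adjusted p = 0.0464). hspb1 had -1.503 (SE 0.196) in resilient and -0.01 (SE 0.19) in susceptible larvae, a difference of -1.49 (SE 0.28, adjusted p = 0.0459). Basal means in resilient and susceptible larvae were 12.9 and 16.2 CPM for pfkfb1 and 63.0 and 74.9 CPM for prodha. They were 11.7 and 15.7 CPM for gls2b and 52.3 and 45.1 CPM for hspb1. Other genes among the 31 included il6st, c7a, socs3b, c5ar1, stat3, fam13b_1 and fam207a. Of 39 Jak-Stat signalling genes, 3 were called for the difference, against 0.141% of all genes. In resilient larvae 8 of these 39 fell and 1 rose (median -0.14), with 20.5% lower against 3.59% of all genes. In either direction, 2 were called without both basal 1 and 3 and 3 without both stressed 2 and 3. Lists with 2 genes called for the difference were the glucocorticoid-responsive (33 tested), slow muscle (36), complement (40), neutrophil (27) and integrin (64) lists. mybpc1, upk1a and ftr63, the 3 genes called for the difference but not in resilient larvae, are named after their values were seen. Of the 31 calls 5 held with each of the 18 larvae left out in turn, among them those of pfkfb1, tln2a, dysf and il6st. timp2b and c7a kept theirs in 17 of 18 such fits, socs3b in 14, tnnt1 in 11 and asb10 in 10. c5ar1 and fam13b_1 kept theirs in 9, stat3 in 7, hspb1 and fam207a in 6, and prodha and gls2b in 5. With both outlying basal larvae left out 6 genes were called for the difference, and with both outlying stressed larvae left out also 6.

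**Figure D5:**
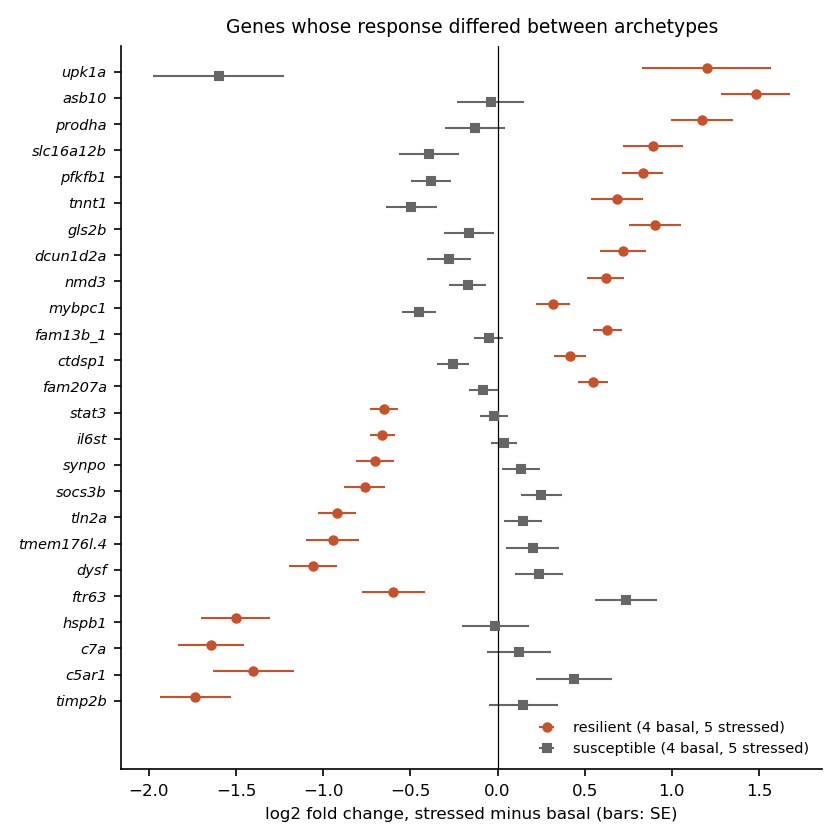
Log2 fold change, stressed minus basal, with SE bars, in resilient (orange circles) and susceptible larvae (grey squares) for the genes with an assigned symbol whose response differed between archetypes. Susceptible values lie near or across 0 from the resilient values; for pfkfb1 they are 0.83 in resilient and -0.38 in susceptible larvae.

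Whole lists were not tested for a difference. Side by side, medians in resilient and susceptible larvae were -0.21 and 0.03 for endoplasmic reticulum chaperones, 0.19 and 0.01 for autophagy, and 0.22 and -0.08 for ribosome biogenesis. Ubiquitin ligases had 0.22 and -0.02, collagens -0.18 and -0.14, lens genes 0.38 and -0.05, and acute phase and carrier proteins -0.25 and -0.25.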

How the data were processed

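RNA of single whole larvae was sequenced. Counts of reads for each gene symbol in 18 libraries, raw per the file headers, were deposited by the authors and served for all tests. They also deposited log2 fold changes and p-values, written as basal over stressed, per the file headers. By the authors' deposited table, 1796 genes have an adjusted p below 0.05 for resilient larvae, and 1369 of the 1399 genes called here are among them with the same direction. The submitters' processing notes name STAR, cutadapt and DESeq2 with the danRer11 build. Counter, annotation and strand are not stated there, so overlapping and antisense genes and numbered copies cannot be separated. Of 25281 rows, 15 named as dates were left out (0.0613% to 0.0698% of reads).

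The fit was edgeR 4.0.16 in R 4.3.3: TMM factors, filterByExpr, 4 group means over 18 libraries, robust quasi-likelihood F test, Benjamini-Hochberg adjustment. Each library is 1 larva; the labels give no clutch, day or batch. No pair of larvae within a group agreed within sampling noise. List scores and principal components used log2 CPM with a prior count of 2. The steps were tested on simulated data. The 79 gene lists (3769 of 4317 entries matched by symbol or older symbol, 3583 tested) and the members were chosen with earlier results of these data known, so counts over lists are descriptions. Genes were named by rule among those with an assigned symbol and at least 1 CPM on average: the 15 called genes of smallest p and 5 of largest change per direction, up to 4 called members per list and direction, and a stress panel. Fewer were named, with genes preferred whose call held without any 1 larva. Alternatives were DESeq2 1.42.0, limma 3.58.1 voom with quality weights, RLE factors, other filters, replicate blocks, 1 surrogate variable (sva 3.50.0), a fit of 9 libraries, left-out larvae and a fold threshold.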

Additional observations from a re-analysis of the deposited data

Results flagged for a closer look

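In 222 groups of larvae (110 genes and the total count, basal and stressed), 11 held a larva whose gap to its nearest neighbour was above Dixon's 95% limit for its group size; chance alone flags about 1 in 20. Among basal larvae, basal 3 stood high for the troponin gene tnnt2c at 23.6 CPM against 14.4 to 15.6 CPM in the others and for the proteasome activator gene psme2 at 18.1 CPM against 12.98 to 13.7 CPM in the others, and basal 1 stood high for egr1 at 33.6 CPM against 26.9 to 27.6 CPM in the others. Stressed 4 stood high for pmaip1 at 24.1 CPM against 16.9 to 18.9 CPM in the others, for star at 23.1 CPM against 13.5 to 15.6 CPM in the others and for the skin gene lye at 52.9 CPM against 32.2 to 36.1 CPM in the others. Stressed 3 stood high for zbtb16b at 9.99 CPM against 5.21 to 6.503 CPM in the others and for pck1 at 975 CPM against 373 to 530.00 CPM in the others. Stressed 5 stood high for apoc4 at 1.65 CPM against 0.906 to 1.09 CPM in the others and for gch2 at 7.38 CPM against 2.43 to 3.604 CPM in the others. The single low value was crhb in stressed 1, at 8.46 CPM against 10.21 to 10.7 CPM in the others. For egr1, crhb, apoc4 and gch2 the outlying larva lay on the side of the other group but did not reach it. For tnnt2c and psme2 the outlying basal larva lay on the side away from the stressed group.

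For 9 of the genes described, the response of resilient larvae differed from that of susceptible larvae in a direct test (edgeR, adjusted p below 0.05). The difference in log2 fold change was -1.299 for dysf, 1.18 for tnnt1, 1.52 for asb10, -1.07 for tln2a, -1.88 for timp2b, -1.49 for hspb1, 1.22 for pfkfb1, 1.304 for prodha and 1.07 for gls2b.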

How the results depend on the processing

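The 1399 genes called in resilient larvae became 1886 with DESeq2, 1628 with voom, 1399 with RLE factors, 1430 with a filter of 1 CPM in 4 libraries and 1313 without a filter. Outside a factor of 1.5 lay 640 in the fit of only the 9 resilient libraries, 10 with 1 surrogate variable, 38 without both basal 1 and 3, 69 without both stressed 2 and 3, and 284 where a change of at least 1 on the log2 scale was also asked. With 1 larva left out, 398 to 1918 were called. Of the 1399 genes, 1397 kept their sign with the surrogate variable, at a median 0.598 of their size and with 9 still called; this variable differed between the resilient groups. The 31 genes whose response differed became 407 with DESeq2, 65 with voom, 9 with the surrogate variable, 6 without both basal 1 and 3 and 6 without both stressed 2 and 3, and 5 to 132 with 1 larva left out. The causes were not tested.

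The labels do not say whether equal numbers pair larvae. Over all genes, same-numbered larvae of the groups correlated in their deviations by 0.044, -0.003, -0.053 and -0.124 for title numbers. For bracket numbers the correlations were -0.078, -0.025 and 0.032. Larvae of different numbers were not compared, and a pairing that acts on some genes only would not be seen, so pairing remains undecided. With a replicate block by title number 863 genes were called in resilient larvae and 14 for the difference; with a replicate block by bracket number these were 427 and 8.

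Of the 100 described genes that were called, 96 lost the call with the surrogate variable, 27 with the bracket block and 5 with the title block. The fit of only the 9 resilient libraries ended 8 of these calls. Among them were klhl38b, zfand5b and nob1 (edgeR adjusted p = 0.0564, 0.0514 and 0.0532). Among the 110 genes described, those that changed sign under any alternative were not called. sgk1 was 0.0735 with the surrogate variable and 0.134 without both basal 1 and 3, and per1a was 0.0511 with the title block and 0.0298 without both stressed 2 and 3. With 1 larva left out, fold changes ran from -0.179 to 0.112 for per1a, -0.638 to 0.004604 for klf9 and -0.2103 to 0.0327 for cyp11c1. At depths of 10722550 to 17750838 reads, changes of genes near 1 CPM rest on few reads.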
